A study of Mus musculus with 2 samples.

Results

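The deepest barcodes of 2 single-nucleus libraries of the mouse stria vascularis (SV) were examined, that is, those with over 8000 UMIs (unique molecular identifiers, 1 per counted RNA molecule). Members were selected on 2 measured values, their total UMIs and their mitochondrial share: barcodes with over 8000 UMIs of which at most 10% came from genes whose symbol starts with mt-, taken in each matrix on its own. They numbered 376 of 4748 barcodes (7.92%) in the MethFix matrix and 346 of 3868 (8.95%) in the RNAlater matrix, 722 of 8616 in all. They were compared with middle barcodes, which had 3000 to 8000 UMIs under the same mitochondrial limit and numbered 2120 and 1759. A further 25 MethFix and 27 RNAlater barcodes over 8000 UMIs exceeded the mitochondrial limit and were left out. The UMI limit is the one the study's own quality control used to discard barcodes.

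Nuclei came from the SV of CBA/J mice at postnatal day 30 (P30), with no treatment or genetic change named in the labels. In the MethFix dataset isolated nuclei were fixed in methanol, and in the RNAlater dataset the dissected tissue was kept in RNAlater, a salt solution that preserves RNA, before nuclei were isolated. Each dataset is 1 droplet library made from pooled mice. The study's methods state mice of both sexes, and the sex-linked genes, given below, go against a large share of male nuclei. With 1 library each there was no replicate, no mouse could be told from another, and no test between barcode groups was made. All intervals below are exact 95% Poisson or binomial intervals and cover counting error only.

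The 2 matrices are not independent, which bears on every result. They share 3323 barcode sequences, 70.0% of the MethFix and 85.9% of the RNAlater barcodes. All 346 deep RNAlater barcodes are also in the MethFix matrix, where 183 are deep, 158 are middle and 5 exceed the mitochondrial limit. For the 183 that are deep in both, the RNAlater count was 1.20 times the MethFix count in the median (interquartile range 1.19 to 1.22). Every one of the 183 profiles correlated best with the profile under its own barcode in the other matrix, at a median Pearson r across genes of 0.923 against at most 0.852 for any other barcode, and genes are not independent replicates. Gene by gene, 91.7% of a barcode's MethFix UMIs (median, range 88.0% to 95.3%) were matched by UMIs in the RNAlater matrix. The 722 members are therefore 539 distinct barcode sequences, and agreement between the matrices is not replication. From which of the 2 preparations the shared barcodes came was not tested, so their values cannot be assigned to 1 preservation method. The MethFix matrix is given as a whole and also split into 183 deep barcodes shared with the RNAlater matrix and 193 found in the MethFix matrix alone, with 1693 shared and 427 MethFix-only middle barcodes beside them.

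The SV is the epithelium of the cochlear lateral wall that secretes potassium into the endolymph and generates the endocochlear potential. Marginal cells face the endolymph and secrete potassium, intermediate cells are melanocyte-derived and carry the potassium channel Kir4.1, and basal cells are joined by tight junctions and seal the tissue off. In droplet data a barcode with very many UMIs may hold a nucleus rich in RNA, several nuclei, or a nucleus with RNA of other cells attached, and its UMI count alone does not separate these.

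Deep MethFix barcodes held a median of 11435 UMIs (95% interval of the median 10854 to 11948, range 8018 to 134970) and deep RNAlater barcodes a median of 9954.5 (range 8005 to 41153). The deepest barcodes were MethFix-only: their median was 13033 UMIs against 10483 in the shared ones, and 44 of the 193 exceeded 20000 UMIs. UMI counts chose the members, so these values describe the choice. Genes detected per barcode, thinned at random to 3000 UMIs so that depth was equal, had medians of 1646 in deep against 1591 in middle MethFix barcodes and 1650.5 against 1600 in RNAlater (unthinned, 3977 and 3563.5 in the deep barcodes). At equal depth a deep barcode thus showed only slightly more genes than a middle one. The share of UMIs from mitochondrial genes, which the limit of 10% bounds, had a median of 2.13% in deep against 0.524% in middle MethFix barcodes, and 0.905% against 0.373% in RNAlater. In the MethFix-only barcodes the medians were 2.81% and 1.57%.

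**Figure D1:**
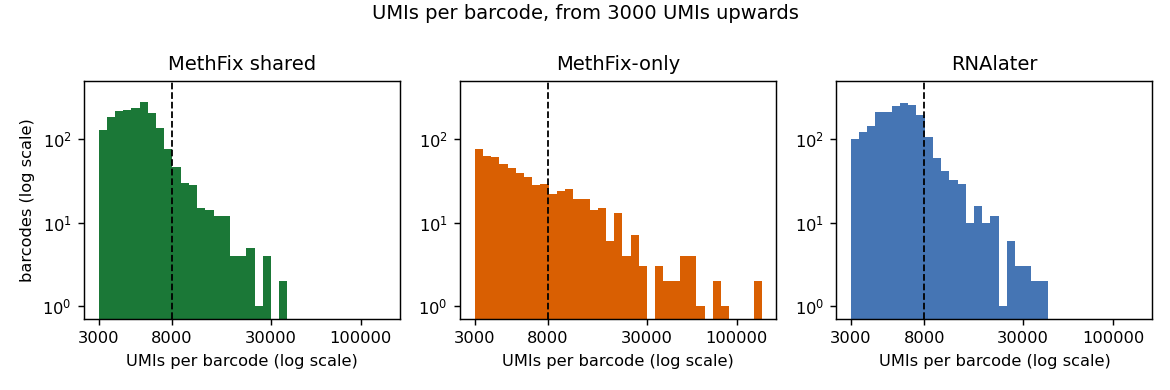
Number of barcodes (log axis) by total UMIs (log axis, from 3000 up) within the mitochondrial limit, for shared MethFix, MethFix-only and RNAlater barcodes, with the dashed line at 8000 UMIs. The 193 MethFix-only deep barcodes reach 134970 UMIs, while the shared MethFix ones end at 34473 and the RNAlater ones at 41153.

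The marker lists were marginal (9 genes), intermediate (12 genes) and basal (6 genes). In the RNAlater matrix the deep barcodes were richer in marginal and poorer in intermediate markers than the middle ones. Marginal markers took 6262 of every 1000000 UMIs (CPM; interval 6186 to 6339) in deep and 4219 (4178 to 4260) in middle barcodes, a log2 ratio of 0.57 (0.55 to 0.59). Intermediate markers took 4713 CPM (4647 to 4780) against 10106 (10043 to 10170), a log2 ratio of -1.10 (-1.12 to -1.08). Basal markers took 737 CPM against 860, a log2 ratio of -0.22 (-0.28 to -0.16).

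In the MethFix matrix as a whole the same ratios were small: 0.16 (0.14 to 0.18) for the marginal, -0.29 (-0.31 to -0.28) for the intermediate and -0.12 (-0.17 to -0.06) for the basal list. The whole is a blend of barcodes that differ. Among shared barcodes the marginal ratio was 0.51 (0.48 to 0.54) and the intermediate ratio -1.60 (-1.63 to -1.57), at 3671 CPM of intermediate markers in deep against 11120 in middle barcodes. Among MethFix-only barcodes the marginal ratio was -0.0038 (-0.04 to 0.04), with no direction to be read. The intermediate ratio there was 0.08 (0.05 to 0.10), at 12621 against 11962 CPM. The MethFix-only deep barcodes therefore held more intermediate marker RNA than the shared deep ones, with a log2 ratio of 1.78 (1.75 to 1.82), and less marginal marker RNA, with a log2 ratio of -0.69 (-0.72 to -0.65). The choice of middle barcodes mattered for the smaller values. With the middle group starting at 5000 UMIs the basal ratios became 0.31 (MethFix) and 0.27 (RNAlater), and the MethFix marginal ratio became -0.08.

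**Figure D2:**
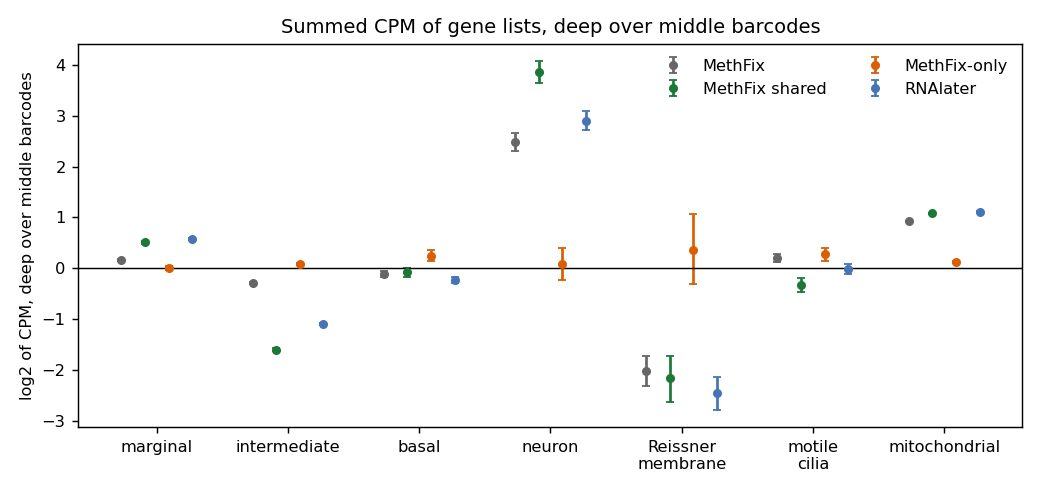
Log2 ratio of summed CPM, deep over middle barcodes, for 7 gene lists, with exact 95% intervals, in the RNAlater matrix, the whole MethFix matrix and its shared and MethFix-only barcodes. Shared MethFix and RNAlater values, which come largely from the same barcodes, have the same sign for the marginal, intermediate and neuron lists but differ in size (intermediate list -1.60 and -1.10, neuron list 3.85 and 2.90), while MethFix-only values are near 0 for the marginal, intermediate and neuron lists.

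Genes were counted as past 2-fold when their CPM differed by at least that much with at least 50 UMIs in the higher group. In the RNAlater matrix 362 of 10626 genes were higher in the deep barcodes (3.41%) and 258 were lower (2.43%). In the MethFix matrix 350 of 11049 genes were higher (3.17%) and 99 were lower (0.896%). Among shared MethFix barcodes 357 of 9217 genes were higher (3.87%) and 384 lower (4.17%). In the 2 whole matrices the median log2 ratio over all genes that passed the filter was -0.02 in RNAlater and -0.07 in MethFix.

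Against that background, 1 of 9 marginal genes was past 2-fold higher in RNAlater and 0 of 9 in MethFix, and the list medians were 0.73 and 0.22. The gene was Atp1b2, a beta subunit of the sodium pump, at chr11:69599736-69605942 on the minus strand (GRCm38 here and below). Atp1b2 took 971 CPM in deep and 438 in middle RNAlater barcodes, a log2 ratio of 1.15 (1.09 to 1.21), and 680 against 484 in MethFix, a ratio of 0.49. Kcnq1 (chr7:143106362-143427042, plus strand) and Kcne1 encode the subunits of the channel through which marginal cells release potassium. Kcnq1 had 1901 against 1386 CPM in RNAlater, a log2 ratio of 0.46 (0.42 to 0.50), and 1545 against 1487 in MethFix, a ratio of 0.06 (0.02 to 0.09). Kcne1 had log2 ratios of 0.94 and 0.44. The transcription factor genes Esrrb and Lmx1a had RNAlater ratios of 0.44 and 0.28, and Bsnd, the gene of a chloride channel subunit, 0.84. All 9 marginal genes thus had positive ratios in both matrices, and Kcnq1, Heyl, Esrrb and Lmx1a, at 0.06 to 0.09, were nearest to 0 in MethFix. Kcnq1 overlaps the antisense RNA Kcnq1ot1, and how the counting used strand is not given in the sources used here.

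Of the 12 intermediate genes, 9 passed the filter on low counts, and 5 of these were past 2-fold lower in RNAlater and 2 in MethFix, with list medians of -1.04 and -0.52. Dct encodes a melanin synthesis enzyme and lies at chr14:118012790-118052244 on the minus strand. Its level was 2576 CPM in deep and 6074 in middle RNAlater barcodes, a log2 ratio of -1.24 (-1.27 to -1.21). In MethFix it was 6359 against 7193, a ratio of -0.18, which came from 2115 against 6961 in shared and 8986 against 8170 in MethFix-only barcodes. Tyr, the gene of tyrosinase, had RNAlater and MethFix ratios of -1.04 and -0.62. Met, which encodes the receptor of hepatocyte growth factor, had ratios of -1.27 and -0.52. Kcnj13, a potassium channel gene, had -1.40 and -1.01. Smaller ratios were found for Kcnj10, which encodes Kir4.1, at -0.68 and -0.37, and for Mitf, the melanocyte transcription factor, at -0.48 and -0.36. The pigment genes Tyrp1 and Pmel had at most 10 UMIs in either group and Oca2 at most 27, so no direction could be read for them. None of the 6 basal genes was past 2-fold in either matrix. Cldn11, the claudin of basal cell tight junctions (chr3:31149920-31164324, plus strand), had ratios of -0.06 (-0.16 to 0.04) in RNAlater and -0.28 (-0.38 to -0.18) in MethFix.

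Co-detection means at least 2 UMIs from each of 2 of the 3 lists. At equal depth it was more frequent in deep than in middle barcodes, each group taken as a whole. After thinning to 3000 UMIs it was found in 315 of 376 deep MethFix barcodes (83.8%, 79.7% to 87.4%) and in 59.2% (57.0% to 61.3%) of the middle ones. In RNAlater it was found in 234 of 346 deep barcodes (67.6%, 62.4% to 72.5%) and in 54.1% (51.8% to 56.5%) of the middle ones. Without thinning the shares were 96.5% against 72.7% and 92.2% against 71.2%. In the MethFix-only barcodes 185 of 193 deep ones (95.9%, 92.0% to 98.2%) passed against 72.8% of the middle ones, and in the shared barcodes 71.0% against 55.7%. At least 2 UMIs of each of the 3 lists were found in 48.7% of deep MethFix-only, 10.9% of deep shared and 13.3% of deep RNAlater barcodes. The shares of the middle ones were 17.6%, 7.27% and 8.30%. Outside the MethFix-only barcodes co-detection did not rise steadily with total UMIs. In RNAlater it was 63.1% at 3000 to 4000 UMIs, 51.9% at 6000 to 8000, 74.1% at 10000 to 15000 and 63.8% above 15000. In shared MethFix barcodes it was 59.0%, 57.5%, 76.1% and 54.3% in the same ranges. The top range held only 58 RNAlater and 35 shared MethFix barcodes, with intervals of 50.1% to 76.0% and 36.6% to 71.2%.

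Intermediate UMIs were also common in barcodes led by another class. Among middle barcodes led by marginal markers (at least 80% of their marker UMIs, with 3 or more of these), 63.6% in MethFix and 60.7% in RNAlater still had 2 or more thinned UMIs of intermediate genes, with a median of 2 such UMIs and median depths of 5192 and 6022 UMIs. In the deep marginal-led barcodes the shares were 68.0% and 67.2%, at median depths of 10928 and 10046. The deep and middle shares were close, and the co-detection counts above include barcodes of this kind. Marginal-led barcodes made up 51.2% of deep and 37.4% of middle RNAlater barcodes, and 26.6% and 37.3% in MethFix. The co-detection shares above thus also depend on the class make-up of each group. Where the intermediate UMIs of marginal-led barcodes come from was not tested. Marginal UMIs were rarer in barcodes led by intermediate markers. Of middle intermediate-led barcodes 19.4% (MethFix) and 12.5% (RNAlater) had 2 or more marginal UMIs, at median depths of 4639 and 5459. Of the deep ones 18.2% of 55 had them in RNAlater, against 68.7% of 83 in MethFix, and 80.3% of 61 in the MethFix-only barcodes, at median depths of 9046, 11206 and 11469.

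By the 80% rule 26.9% of deep RNAlater barcodes were mixed against 25.4% of middle ones, 51.2% were marginal-led against 37.4%, and 15.9% were intermediate-led against 30.1%. In MethFix 46.8% of deep and 26.1% of middle barcodes were mixed. By range of total UMIs, the mixed share under this rule was highest at 3000 to 4000 UMIs in RNAlater (48.1%) and in shared MethFix barcodes (39.6%). Above 15000 UMIs it was 24.1% of 58 barcodes (13.9% to 37.2%) and 11.4% of 35 (3.20% to 26.7%). In the lowest range the median marginal and intermediate UMIs were only 2 and 3 in RNAlater and 2 and 5 in shared MethFix barcodes. These classes are ranges of a score and not cell types, and 84 deep MethFix and 56 deep RNAlater barcodes lay within 5 percentage points of the limit. The basal list holds few UMIs beside the other lists. An alternative, added after the data were seen, first divided each list by its 95th percentile over the middle barcodes. By that rule 56.9% of deep and 14.4% of middle MethFix barcodes were mixed, and 16.8% and 6.65% in RNAlater. In shared MethFix barcodes the shares were 21.9% and 5.73%. In the MethFix-only barcodes they were 90.2% (174 of 193, 85.1% to 94.0%) and 49.0%. Of the 68 RNAlater barcodes within 500 UMIs above the limit 17.6% were mixed by the unscaled rule, and of the 113 within 500 UMIs below it 16.8%. The MethFix shares were 44.4% of 45 and 25.9% of 54. The nearest members had 8018 and 8005 UMIs and the nearest barcodes below the limit 7999 and 7997.

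**Figure D3:**
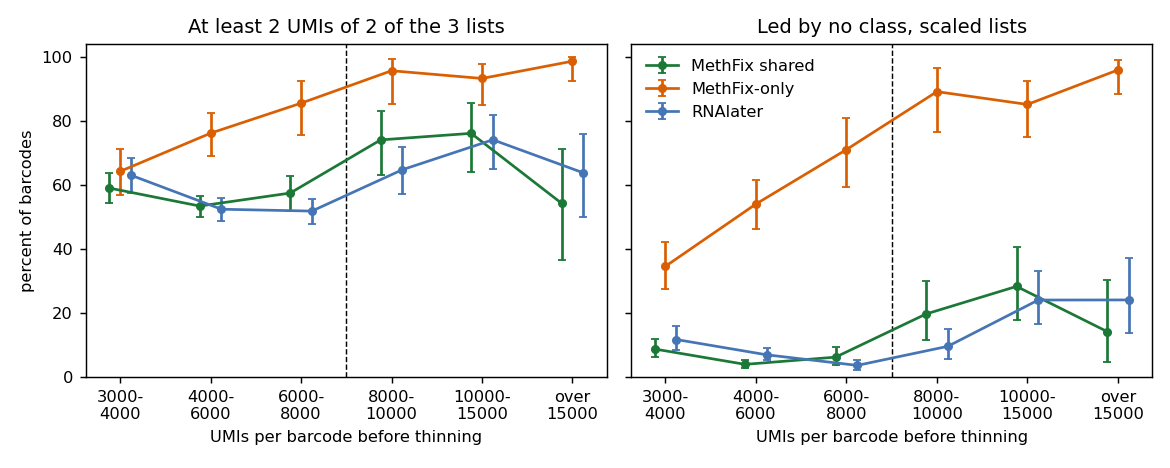
Percent of barcodes with co-detection (left) and mixed by the scaled rule (right), after thinning, in 6 ranges of total UMIs for RNAlater, shared MethFix and MethFix-only barcodes, with exact 95% binomial intervals and a dashed line at 8000 UMIs. On the left, RNAlater values are 63.1% in the lowest range and 63.8% above 15000 UMIs, and shared MethFix values 59.0% and 54.3%. MethFix-only values there go from 64.2% to 98.6%. On the right, MethFix-only values go from 34.6% in the lowest range to 95.9% above 15000 UMIs. Shared MethFix values lie between 4.03% and 8.82% below 8000 UMIs and between 14.3% and 28.4% above, and RNAlater values between 3.72% and 11.8% below and between 9.66% and 24.1% above.

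The MethFix-only deep barcodes mostly held both marginal and intermediate markers, in proportions that varied. At 3000 UMIs they held medians of 11 marginal (interquartile range 8 to 16), 32 intermediate (21 to 48) and 2 basal (0 to 3) UMIs. Marginal UMIs made up a median of 25.0% (14.5% to 41.2%) of their marginal and intermediate UMIs, and 80.8% of them lay between 10% and 90%. The MethFix-only middle barcodes had nearly the same medians, 11 marginal and 31 intermediate UMIs, with wider interquartile ranges (1 to 19.5 and 4 to 60). Their median marginal share was 28.0% (1.86% to 82.1%), and 51.4% of those with at least 5 such UMIs lay between 10% and 90%. Deep shared barcodes lay mostly towards the marginal end, with a median of 87.8%, and 39.9% of those with at least 5 such UMIs were between 10% and 90%. Deep RNAlater barcodes had a median of 88.0%, and 33.7% of those with at least 5 such UMIs lay between 10% and 90%. The 21 MethFix-only barcodes over 30000 UMIs all contained both kinds of marker, with 4 to 20 marginal UMIs (median 11), 21 to 61 intermediate UMIs (median 41) and 0 to 6 basal UMIs per 3000. The 2 deepest, at 134970 and 128172 UMIs, held 8 and 11 marginal and 34 and 60 intermediate UMIs. The deepest RNAlater barcodes were of other kinds: 1 with 41153 UMIs held 33 marginal, 1 intermediate and 0 basal UMIs, and 1 with 40790 held 1, 0 and 0.

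**Figure D4:**
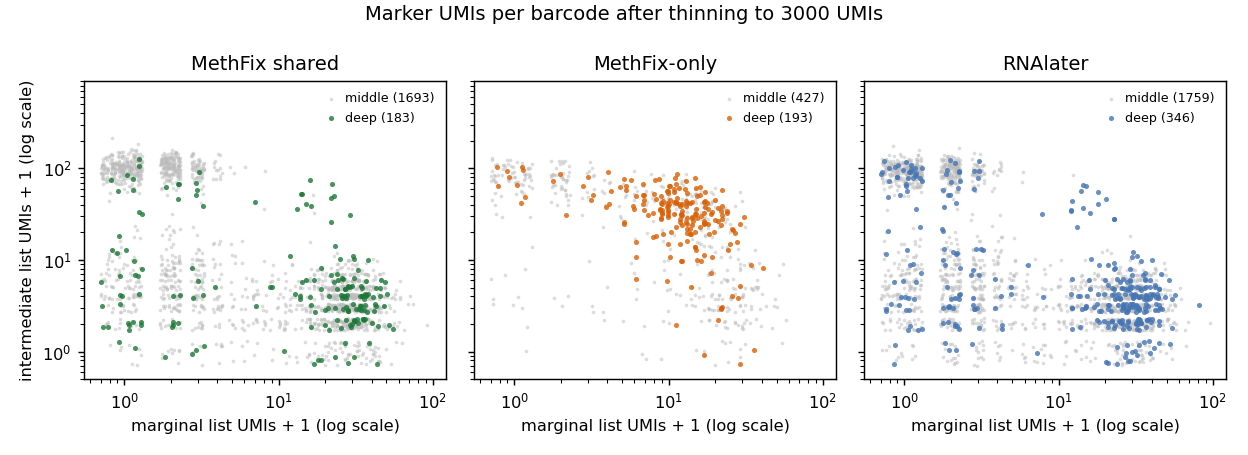
Marginal against intermediate marker UMIs per barcode after thinning to 3000 UMIs, plotted as UMIs + 1 on log axes with points jittered, for RNAlater, shared MethFix and MethFix-only barcodes (grey, middle; coloured, deep). Most RNAlater and shared deep barcodes are rich in at most 1 of the lists (17 of 346 and 14 of 183 have at least 10 UMIs of both), while MethFix-only deep barcodes gather where both are present, around medians of 11 marginal and 32 intermediate UMIs. The MethFix-only middle barcodes have medians of 11 and 31, with wider interquartile ranges.

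A stricter count, set after the values were seen, required at least 10 thinned UMIs of both marginal and intermediate genes. It was met by 97 of 193 deep MethFix-only barcodes (50.3%, 43.0% to 57.5%) and 106 of 427 middle ones (24.8%). It was met by 14 of 183 deep shared barcodes (7.65%) against 5 of 1693 middle ones (0.295%), and by 17 of 346 deep RNAlater barcodes (4.91%, 2.89% to 7.75%) against 5 of 1759 (0.284%). Scrublet, a program that scores barcodes by their likeness to simulated sums of barcode pairs, marked 13 of those 17 and 10 of those 14, but 24 of the 97. Over all members Scrublet marked 21.8% of deep and 6.46% of middle MethFix barcodes, and 13.6% and 0.682% in RNAlater. In the MethFix-only barcodes it marked 22.3% of the deep (16.6% to 28.8%) and 27.4% of the middle ones (23.2% to 31.9%). These intervals overlap, so no direction is read, whereas the stricter count above was higher in the deep ones. Whether the mixed barcodes hold several nuclei or RNA from other cells was not tested.

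Xist, which is expressed from the inactive X chromosome of females, and the Y-linked genes gave no help in counting mixed barcodes. Uty, Ddx3y, Kdm5d and Eif2s3y together had 17 UMIs in the whole MethFix and 33 in the whole RNAlater matrix, and Xist had 15370 and 13166. Without thinning, Xist was found in 98.4% of deep and 90.3% of middle MethFix barcodes and in 96.2% and 92.4% in RNAlater. These values go against a pool with a large share of male nuclei, and whether the pools were female or the Y-linked transcripts were missed was not tested. Of the barcodes with either, 1 of 316 deep and 5 of 1777 middle MethFix barcodes had both after thinning, and 2 of 271 and 5 of 1509 in RNAlater. With so few Y-linked UMIs, a barcode that might hold nuclei of both sexes was not detectable at this depth.

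Markers of neurons had the highest ratio of the lists in both matrices. A list of 4 neuron genes took 260 CPM (245 to 276) in deep and 34.8 (31.1 to 38.7) in middle RNAlater barcodes, a log2 ratio of 2.90 (2.72 to 3.09). In MethFix it took 192 against 34.3, a ratio of 2.48 (2.31 to 2.66), and in MethFix-only barcodes 68.6 against 64.9, a ratio of 0.08. All 3 members with UMIs were past 2-fold higher in both matrices, and Tubb3 was at 0 UMIs in every group. Nefl, a neurofilament gene at chr14:68083863-68089095 on the plus strand, had 105 UMIs in deep against 5 in middle RNAlater barcodes and 96 against 7 in MethFix. The deep barcode richest in Nefl held 88 of the 105 UMIs in RNAlater and 81 of the 96 in MethFix. The Nefl values thus mostly describe that barcode of each matrix and not the deep barcodes at large. The 2-fold count set no rule on spread over barcodes. Snap25, which encodes a protein of synaptic vesicle fusion and lies at chr2:136713453-136782428 on the plus strand, had 95.2 against 1.58 CPM in RNAlater, a log2 ratio of 5.92 (5.18 to 6.77). Syt1, the gene of a calcium sensor for vesicle release, had ratios of 2.09 in RNAlater and 1.92 in MethFix.

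Part of these UMIs lay in a few barcodes. Barcodes with at least 3 thinned UMIs from at least 2 of these genes, a limit set after the values were seen, numbered 12 of 346 deep RNAlater barcodes (3.47%, 1.80% to 5.98%) and 1 of 1759 middle ones (0.0569%). In MethFix they numbered 13 of 376 deep (3.46%, 10 of them shared) and 7 of 2120 middle barcodes (0.330%). Of the deep ones 9 were found in both matrices, so they are largely the same barcodes counted in each. The 12 and 13 deep ones had total UMIs of 9343 to 40790 (median 14687.5) and 8126 to 34473 (median 12236). The limit used these genes, so their values here describe the choice. Snap25 was present in all of them, at 5 to 58 UMIs (median 25.5) in RNAlater and 3 to 50 (median 17) in MethFix. Nefl was present in 5 of 12 and 4 of 13. Over all of them it had 0 to 88 UMIs (median 0) in RNAlater and 0 to 81 (median 0) in MethFix. These barcodes held 98.1% and 94.8% of the Nefl UMIs of the deep barcodes and 82.6% and 64.4% of the Snap25 UMIs. Of the Syt1 UMIs, the most abundant of the list, they held 74.7% in RNAlater and 46.3% in MethFix. Over all 13 RNAlater and 20 MethFix neuron-list barcodes, median thinned UMIs were 0 and 0.5 for marginal, 1 and 2 for intermediate and 1 and 3 for basal markers. Of these barcodes 5 and 11 were mixed by the unscaled rule, 7 and 7 had too few marker UMIs to be classed, and Scrublet marked 0. At such low medians the mixed calls rest on few marker UMIs.

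**Figure D5:**
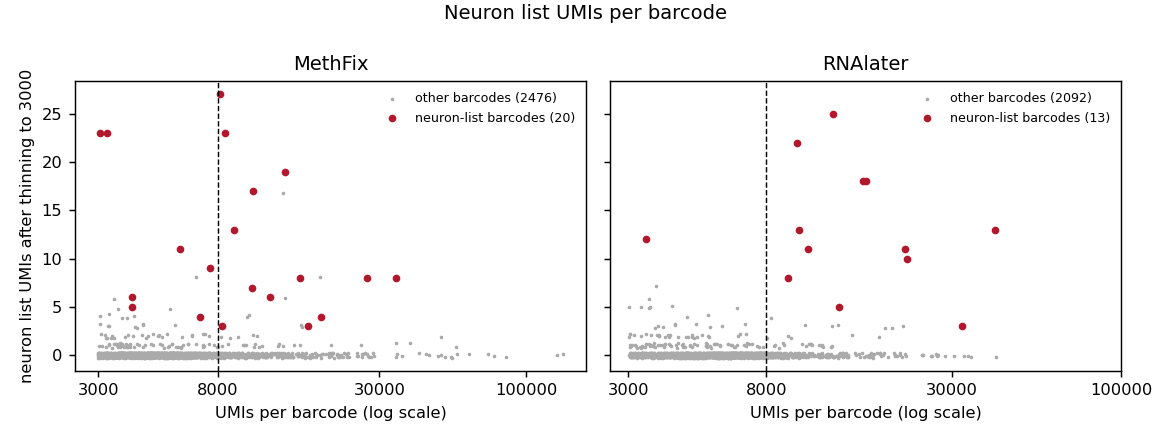
Neuron list UMIs per barcode after thinning to 3000 UMIs against total UMIs (log axis), in each matrix (grey, barcodes below the neuron-list threshold, jittered vertically; coloured, barcodes with at least 3 UMIs from at least 2 genes). Of the coloured barcodes 13 of 20 in MethFix and 12 of 13 in RNAlater lie above 8000 UMIs.

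Outside the marker lists 269 genes were past 2-fold higher in both matrices, and much of the UMIs of the 10 leading ones lay in the same barcodes. Dcx, which encodes a microtubule protein of young neurons (chrX:143855842-143933311, minus strand), had 73 UMIs in deep against 2 in middle RNAlater barcodes, a log2 ratio of 6.40 (4.50 to 9.48), and 63 against 1 in MethFix, a ratio of 6.81 (4.28 to 12.13). Cpne4 (chr9:104547286-105034544, plus strand), which encodes a calcium-dependent membrane-binding protein, had ratios of 5.21 and 5.01. Cadps, a gene of vesicle priming, had 5.40 and 3.69, and Lrrtm3, which encodes a synaptic adhesion protein, 6.01 and 2.82. The transcription factor genes Myt1l (4.64 and 4.60) and Bcl11a (4.20 and 4.70), the RNA-editing family gene Adarb2 (3.69 and 5.11), the glutamate receptor gene Grin2b (4.41 and 3.74) and the noncoding RNA 9530059O14Rik (4.54 and 4.19) followed. Meg3, a noncoding RNA at chr12:109541001-109571726 on the plus strand, was the most abundant of these, at 572 against 25.9 CPM in RNAlater and 345 against 21.4 in MethFix, with ratios of 4.46 and 4.01. The neuron-list barcodes held 61.0% to 98.7% of the deep UMIs of these 10 genes in RNAlater and 45.3% to 82.5% in MethFix.

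Without the neuron-list barcodes, 118 of 10422 genes (1.13%) were past 2-fold higher in RNAlater and 184 of 10867 (1.69%) in MethFix, and 64 outside the marker lists were so in both, while 302 (2.9%) and 97 (0.893%) were lower. Only 4 of the 64 higher genes were spread over at least 10 deep barcodes with none holding over 20% of the UMIs. They were mt-Cytb (RNAlater and MethFix ratios 1.22 and 1.40), mt-Rnr1 (1.21 and 1.12), mt-Nd4l (1.39 and 1.57) and Bola1 (1.13 and 1.01), the last encoding a mitochondrial protein. Over all barcodes, genes past 2-fold higher were mostly long: with genes split into 4 equal groups by annotated span, 255 of 362 in RNAlater and 284 of 350 in MethFix came from the longest group, from 77664 and 74773 bases up. The median ratios of the 4 groups lay between -0.11 and 0.06.

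Lower in deep barcodes of both matrices were 40 genes outside the lists. Dkk2 encodes a secreted modulator of Wnt signalling (chr3:132085292-132180304, plus strand). It had 40.2 CPM in deep against 240 in middle RNAlater barcodes, a log2 ratio of -2.58 (-2.82 to -2.35). In MethFix it had 40.6 against 159, a ratio of -1.97 (-2.17 to -1.77). Its UMIs came from 4.34% of deep and 6.71% of middle RNAlater barcodes, and from 12.2% and 5.19% in MethFix. The summed CPM of this gene thus describes few barcodes. Crhbp, the gene of a binding protein for corticotropin-releasing hormone, had ratios of -2.52 and -2.88. Bbox1, which encodes an enzyme of carnitine synthesis, had -2.87 and -2.11, and the dipeptidase gene Cndp1 -2.87 and -1.99. Gm21949 had 2 UMIs against 74 in RNAlater, a ratio of -4.00 (-7.07 to -2.09), and 0 against 54 in MethFix, at least 10.1-fold lower when the floor is set at 3 UMIs over the group. The other 5 were E330013P04Rik, Nkain3, Tmem72, A330093E20Rik and Gm26719, with ratios between -2.71 and -1.38. Reissner membrane markers were also low in the deep barcodes, with 21.4 against 118 CPM in RNAlater (log2 ratio -2.46) and 18.4 against 74.1 in MethFix (-2.01). The anion transporter gene Slc26a7 (chr4:14502430-14621805, minus strand) carried most of this, at ratios of -3.09 and -2.64. In MethFix-only barcodes the list was at 17.5 against 13.6 CPM, with an interval of the log2 ratio from -0.31 to 1.07.

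Deep and middle barcodes led by the same class were also compared. Among marginal-led barcodes 38 of 7560 genes were past 2-fold higher in deep RNAlater barcodes (0.503%) and 88 lower (1.16%), and in MethFix 30 of 6559 (0.457%) and 99 (1.51%). The leading higher genes were mitochondrial. mt-Nd5 took 539 against 173 CPM in RNAlater, a log2 ratio of 1.64 (1.50 to 1.78), and 692 against 231 in MethFix, a ratio of 1.59. mt-Nd2, mt-Nd4 and mt-Nd1, which like mt-Nd5 encode subunits of respiratory complex I, had ratios of 1.46 to 1.60. The pseudogene Gm28438, also among the leading 5 (1.68 and 1.46), is a nuclear copy of mitochondrial sequence and may share reads with it, so its value is uncertain. The members' mitochondrial share is bounded by the rule that chose them. The leading lower genes were Dkk2 (-3.49 and -3.62), Bbox1, E330013P04Rik, Glis3 and Crhbp. Dkk2 UMIs came from 6 of 177 deep and 49 of 657 middle marginal-led RNAlater barcodes, so the gene was seen in few barcodes of either group.

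Among intermediate-led barcodes 95 of 4785 genes (1.99%) were higher and 159 (3.32%) lower in the 55 deep RNAlater barcodes. In the 83 deep MethFix barcodes 595 of 6910 (8.61%) were higher and 293 (4.24%) lower. Of these 83 barcodes 61 were MethFix-only, against 160 of the 692 middle ones. The MethFix ratios of this class thus also set MethFix-only against shared barcodes. Its shared barcodes were not compared on their own. The class is that of the unscaled rule. By the scaled rule only 19 deep MethFix barcodes, 9 of them MethFix-only, and 42 deep RNAlater barcodes were intermediate-led. Most of the 83 are thus not of this class by that rule. Gna14, a G protein subunit gene (chr19:16435762-16610820, plus strand), led the higher genes, at 92.6 against 13.4 CPM in RNAlater, a log2 ratio of 2.79 (2.17 to 3.43), and 226 against 48.9 in MethFix, a ratio of 2.21 (1.93 to 2.49). Pde4dip, which encodes a centrosome and Golgi protein, had ratios of 1.91 and 2.23, and Etl4 1.67 and 1.92. mt-Cytb (1.54 and 1.73) and mt-Rnr1 (1.50 and 1.70) completed the 5. The lower genes Gm26719, Gm16066, Pwwp2b, Nox4 and Alx1 had at most 18 UMIs in the deep barcodes of either matrix. Basal-led deep barcodes numbered 12 and 6, too few for this comparison.

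Within the MethFix-only barcodes few genes differed by summed UMIs, although single barcodes did differ: by the unscaled rule 62.7% of deep and 38.4% of middle ones were mixed and 5.70% and 23.0% were marginal-led. Of the genes, 37 of 7485 genes were past 2-fold higher in the deep ones (0.494%) and 2 were lower (0.0267%). The highest ratios were those of Saxo2, at 68 against 11 UMIs and 1.77 (0.84 to 2.84), and of Gm16089 at 1.70. Slc25a21, a mitochondrial carrier gene, had 1.52, Spock1 1.52, and Chrm3, a muscarinic receptor gene, 1.51. Zswim4, Grin2a, Robo2, Dkk2 and Ak9 had ratios of 1.29 to 1.44. Dkk2 here had 41.9 against 16.6 CPM, the opposite direction to that in the whole matrix. Of the 2 lower genes Gm21954, at -1.31, met the rule on spread over barcodes.

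MethFix-only deep barcodes differed more from the shared deep barcodes of the same matrix: 302 of 8110 genes were past 2-fold higher (3.72%) and 613 lower (7.56%). Whether this also sets 1 preparation against the other was not tested. Genes of motile cilia led the higher ones. Of the 13 in the cilia list 10 passed the filter, and 6 of these were past 2-fold higher. Dnah12, a dynein heavy chain gene at chr14:26693274-26891703 on the plus strand, had 187 UMIs in 22 MethFix-only barcodes and 2 UMIs in the shared deep barcodes, a log2 ratio of 5.85 (3.98 to 8.91). The dynein genes Dnah9 (77 against 1 UMIs, ratio 5.57) and Dnah5 (102 against 2, 4.98) and the central-apparatus gene Spag17 (56 against 1, 5.12) were alike. Cfap44 (2.99) and Spef2 (2.72) had smaller ratios, whereas Foxj1, the master regulator of motile ciliogenesis, had 7 and 4 UMIs and Dnah11 a ratio of -0.55. Outside the list, Tmem232, Rp1 and Spag16 had ratios of 3.78 to 4.29 and Reln, the gene of an extracellular matrix protein, 4.44. Fbln5, which encodes an elastic fibre protein, had 4.09. Bpifa1, a gene of secretory airway epithelium, had 87 UMIs in 19 MethFix-only barcodes and 0 in the shared ones, which bounds the ratio at 4.17 or more when 3 UMIs stand in for 0, and Tmem212 67 against 0. Against middle barcodes, the summed list had a log2 ratio of 0.20 in the whole MethFix matrix. There 9 of the 11 cilia genes past the filter were past 2-fold higher in the deep barcodes. The share over all genes there was 3.17%. Within either part of that matrix this was not seen: 0 of 9 were higher among MethFix-only barcodes and 0 of 3 among shared ones. The list's log2 ratios were 0.28 and -0.33. In RNAlater 0 of the 3 cilia genes past the filter were past 2-fold higher in deep barcodes, and Dnah12 had 2 UMIs in deep and 7 in middle ones. Among MethFix-only barcodes the middle ones held these transcripts too, with Dnah12 at 51.9 CPM in deep and 44.3 in middle.

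Lower in the MethFix-only than in the shared deep barcodes were Cpne4 (6 against 320 UMIs, ratio -6.43), 9530059O14Rik (-6.84) and Dcx (0 against 63 UMIs), which lead the higher genes above. Rimbp2 (-6.98) and Dlg2 (-4.86), which encode synaptic scaffold proteins, Lrp1b (-5.17), Snhg11 (-4.81) and 5330434G04Rik (-4.80) were also among the 10 leading lower genes. Gm10801 and Gm26870 were of another kind, being spread over 94 and 180 of the 183 shared deep barcodes. Gm26870 had 13.3 CPM in MethFix-only against 1499 in shared deep barcodes, a log2 ratio of -6.81 (-7.26 to -6.40), and Gm10801 1 against 148 UMIs, a ratio of -7.90 (-13.21 to -5.40). In the other direction Malat1, a nuclear noncoding RNA at chr19:5795690-5802672 on the minus strand, took 189536 CPM in MethFix-only and 73056 in shared deep barcodes, a ratio of 1.38. Its deep to middle ratio was -0.41 in RNAlater and 0.25 in MethFix but -0.04 within the MethFix-only barcodes, and MethFix-only barcodes made up 193 of 376 deep but 427 of 2120 middle barcodes of that matrix.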

How the data were processed

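The authors deposited raw UMI counts per gene and barcode for 2 libraries, made with Cell Ranger 3.0.1 on GRCm38 per the labels. Scanpy 1.4.5 is also named there. Both matrices hold 48816 features, and 0 columns of per-sample values were left unused. Depth was 21027671 UMIs over 4748 barcodes (501 to 134970 each, median 3469) in MethFix and 17681824 over 3868 (506 to 41153, median 3998.5) in RNAlater.

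The members, the marker lists and the comparisons were chosen with earlier results of these data known, and 4 basal genes (Cacna1e, Fat2, Sorcs3 and Col27a1) were named after such results. Barcodes with at most 10% of UMIs from mt- genes were kept. UMIs were summed over barcodes and scaled to 1000000 (CPM), with exact 95% intervals in Python 3.11.15 (scipy 1.17.1). With 1 library per preservation method no test was made. A gene with no UMI in 1 group was set to 3 UMIs and given as a bound. Barcodes were thinned to 3000 UMIs with fixed seeds. Doublets were marked with Scrublet (scanpy 1.11.5, rate 0.1, 30 components) and kept in the main values. Of barcodes with at least 200 genes, it marked 298 of 3972 in MethFix and 62 of 2675 in RNAlater. Coordinates are those of GENCODE M21 genes.

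Named genes were all genes of the lists and, for each comparison, the first 10 in each direction (5 within a class) by mean log2 ratio over both matrices. They needed at least 50 UMIs in the higher group, a ratio past 2-fold in the same direction in both, UMIs from at least 10 barcodes and no barcode with over 20% of them. Scripts were tested on simulated data. There were 40 alternatives listed at the start and 4 added after the data were seen, with TMM from edgeR 4.0.16 and size factors from DESeq2 1.42.0 (R 4.3.3).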

Additional observations from a re-analysis of the deposited data

How the results depend on the processing

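Of 148 values under other settings, 77 moved by less than their counting error, or for counts of genes by less than 1.5 times, 65 moved further and 6 changed sign. Causes of the moves were not tested. All 16 values of Xist and Y-linked co-detection were among the 77. List values are log2 ratios of deep over middle barcodes, in the order marginal, intermediate, basal where all are given.

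MethFix list ratios were 0.16, -0.29 and -0.12. With the middle from 5000 UMIs they were -0.08, -0.20 and 0.31. In barcodes found in the MethFix matrix alone they were -0.0038, 0.08 and 0.24, so the intermediate and basal ratios turned and the marginal one lay within counting error of 0, and in shared barcodes the first 2 were 0.51 and -1.60. Without the most abundant gene of each list they were 0.21, -0.53 and -0.04. The mean over barcodes gave 0.26 and -0.50, leaving out barcodes marked by Scrublet 0.18 and -0.33, and leaving out neuron-list barcodes 0.20 and -0.26 for the marginal and intermediate lists. The marginal ratio was 0.11 at a mitochondrial limit of 5%. The intermediate ratio was -0.23 for barcodes over 10000 UMIs and -0.28 with DESeq2 size factors.

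RNAlater list ratios were 0.57, -1.10 and -0.22. With the middle from 5000 UMIs they were 0.30, -1.16 and 0.27. Without Scrublet-marked barcodes they were 0.62, -1.27 and -0.36, as the mean over barcodes 0.64, -0.87 and -0.35, and without the most abundant gene 0.62, -0.92 and -0.31. Marginal and intermediate ratios were 0.64 and -1.64 over 10000 UMIs, 0.54 and -1.13 with TMM, 0.52 and -1.15 with DESeq2 size factors, and 0.64 and -1.03 without neuron-list barcodes. The basal ratio was -0.38 at the limit of 5%.

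Co-detection differed by 24.63 percentage points in MethFix. It became 15.34 in shared barcodes, 29.32 thinned to 1000 UMIs, 10.13 and 32.55 with at least 1 and 3 UMIs per list, and 34.94 without the most abundant genes. In RNAlater it was 13.51, and 5.58 thinned to 1000, 20.96 without thinning and 6.32 with at least 1 UMI. The mixed share differed by 20.72 points in MethFix, and by 27.15 with the middle from 5000 UMIs, 7.08 in shared barcodes and 42.48 with scaled lists. In RNAlater it differed by 1.47, and by 10.32 and 10.11 under the first and last of these.

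Genes past 2-fold higher in MethFix numbered 350, and 37 in MethFix-only barcodes, 184 without neuron-list barcodes, 676 with a filter of 20 UMIs and 3976 with none. Lower genes numbered 99, and 22 with the middle from 5000 UMIs, 384 in shared and 2 in MethFix-only barcodes, 248 with the filter of 20 and 937 with none. In RNAlater higher genes numbered 362, and 118 without neuron-list barcodes, 627 with the filter of 20 and 5106 with none. Lower genes numbered 258, and 482 over 10000 UMIs, 145 with the middle from 5000, 394 without Scrublet-marked barcodes, 497 with the filter of 20 and 1183 with none. No paired analysis was possible because each preservation method has 1 library and no value comes from a test.

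The main limits are that 1 library was made per preservation method, that the matrices share barcodes, and that depth itself chose the members. Thinned values rest on 3000 UMIs per barcode, so a list with few UMIs, such as the basal one, is seen in few barcodes whatever they hold. Intervals cover counting error and not the spread between mice.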

Other observations

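Other gene groups differed between deep and middle barcodes in part. The list of spindle and root cell genes took 456 CPM in deep against 398 in middle RNAlater barcodes (log2 ratio 0.20) and 347 against 349 in MethFix (-0.01), with its members going both ways. Epyc, which encodes a small proteoglycan, had ratios of 1.18 in RNAlater and 0.70 in MethFix, and 1.67 among shared MethFix barcodes, where it had 56.1 against 17.6 CPM. Dpp10, which encodes a partner protein of potassium channels, had 0.92 and 0.37. Slc26a4, the gene of the anion exchanger pendrin, had -1.77 and -1.18, and Otogl -0.93 and -1.83.

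Immediate early genes took 83.3 CPM in deep against 55.9 in middle RNAlater barcodes, a log2 ratio of 0.58 (0.38 to 0.77). In the whole MethFix matrix they took 61.9 against 57.0 (0.12, -0.07 to 0.31). The ratio was 0.66 (0.42 to 0.90) among shared and -0.14 (-0.53 to 0.25) among MethFix-only barcodes. Jun carried most of the UMIs, with 209 of 342 in deep RNAlater barcodes. Endothelial markers were at 9.26 against 31.7 CPM in RNAlater (-1.78), on 38 UMIs in the deep barcodes. In the whole MethFix matrix they were at 19.7 against 17.9 CPM (0.14, -0.21 to 0.49). The ratio was -1.09 (-1.89 to -0.38) among shared and 0.38 (-0.16 to 0.95) among MethFix-only barcodes. Of 53 and 52 ribosomal protein genes that passed the filter in MethFix and RNAlater, 0 and 1 were past 2-fold, the 1 being lower in deep barcodes. Over all genes 3.17% were higher and 0.896% lower in MethFix, and 3.41% and 2.43% in RNAlater. At those shares few genes of a list of this size would be past 2-fold. Of the macrophage, pericyte and red blood cell lists, 0 genes passed the filter in either matrix.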
